A study of Mus musculus with 4 samples.

Results

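Interferon-inducible GTPases are proteins that cells make after interferon and that attack microbes inside the cell. The genes described here are 9 listed members of their main mouse families, Iigp1, Igtp, Irgm1, Irgm2, Gbp2, Gbp3, Gbp4, Gbp5 and Gbp7, taken by symbol from the 27998 genes counted. Single cells were sequenced in droplets with the 10x Genomics system, from the immune cells of B16-GP33 melanomas, a C57BL/6 mouse melanoma line carrying the viral peptide GP33. The tumours were grown under the skin of the flank of C57BL/6 mice for 18 days, and living leukocytes were sorted as cells with surface CD45.2 that kept out propidium iodide. The 4 groups shared strain, tumour and schedule and differed in the antibody given on days 8, 10 and 12. Mice received 200 ug of control IgG, 200 ug of anti-PD-1, 200 ug of anti-PSGL-1, or 200 ug of each of the latter in combination. PD-1 restrains T cells that have met antigen, and PSGL-1 on leukocytes binds selectins, so the comparisons ask how the antibodies change the tumour's immune cells. The age of the mice, and whether tumours were pooled, were not stated by the labels. Each group was 1 library, so no difference between groups has a replicate check, no test was possible, and every interval in parentheses is a 95% interval for counting error only.

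The immunity-related GTPases (IRGs) and the guanylate-binding proteins (GBPs) are dynamin-like enzymes, low in most resting cells and strongly induced by interferon-gamma, in part through the transcription factor IRF1. Type I interferon induces many of them too. In infected mouse cells effector IRGs and GBPs load onto the vacuoles of parasites and bacteria and break them, and GBPs help bacterial products reach inflammasomes. Their transcripts are widely read as a trace of interferon that a cell has received.

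The stretches of promoter that carry either of a pair of interferon-response motifs are shown for the members with an entry in the RefSeq promoter table (GRCm38.p6, windows from 250 bases before to 50 bases after a gene's start), 7 genes matched by symbol. Promoters of Iigp1 and Gbp4 were not used here. Each line is read 5′ to 3′ on the gene's own strand, and capitals mark the gamma-activated sequence (GAS, TTC and GAA with any 3 bases between) and the interferon-stimulated response element (ISRE, GAAA and GAAA with any 2 bases between, the motif of IRF proteins). Both strands were searched, so an ISRE may also read TTTC and TTTC. Neighbouring matches may overlap.
Igtp (chr11:58199491-58199551, plus strand): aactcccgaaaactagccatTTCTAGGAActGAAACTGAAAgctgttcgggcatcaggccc
Irgm2 (chr11:58214882-58214942, plus strand): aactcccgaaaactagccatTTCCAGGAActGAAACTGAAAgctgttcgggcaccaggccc
Irgm1 (chr11:48871421-48871470, minus strand): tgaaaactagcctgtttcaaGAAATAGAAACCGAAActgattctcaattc
Gbp5 (chr3:142496684-142496910, plus strand): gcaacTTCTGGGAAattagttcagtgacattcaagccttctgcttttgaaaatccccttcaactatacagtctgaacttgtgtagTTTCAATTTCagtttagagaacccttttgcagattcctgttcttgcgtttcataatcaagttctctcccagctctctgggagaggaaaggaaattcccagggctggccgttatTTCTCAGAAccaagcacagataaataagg
Gbp7 (chr3:142530210-142530312, plus strand): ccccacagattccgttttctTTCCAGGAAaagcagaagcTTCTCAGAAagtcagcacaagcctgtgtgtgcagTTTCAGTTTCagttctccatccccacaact
Gbp3 (chr3:142559979-142560034, plus strand): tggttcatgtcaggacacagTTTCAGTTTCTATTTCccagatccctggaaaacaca
Gbp2 (chr3:142620584-142620633, plus strand): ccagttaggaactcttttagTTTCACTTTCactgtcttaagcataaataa
The ISRE letters stood in all 7 of these genes, against 3.44% of the 32851 promoters in the table (1131 promoters). GAS letters stood in 4 of them (Gbp5, Gbp7, Igtp and Irgm2), against 8.30% of all promoters, and those 4 genes held both motifs, as did 0.454% of all promoters. In Igtp and Irgm2 the GAS letters end just before the ISRE letters, and in Irgm1 and Gbp3 a pair of ISRE matches overlaps. A second annotated start of Gbp3 held neither motif. The full windows of Igtp and Irgm2 were 73.5% identical when aligned, while the other pairs of promoters were 43.9% to 54.2% identical. These are letter matches and not measured binding sites.

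The members lie in few places of the mouse genome (GRCm38, GENCODE annotation). Gbp5, Gbp7, Gbp3 and Gbp2 follow each other on the plus strand of chromosome 3 between 142493978 and 142638008, a span of 144 kb. Igtp (58199556 to 58207591) and Irgm2 (58199618 to 58222782) overlap on the plus strand of chromosome 11, and Irgm1 lies on the minus strand of that chromosome (48861968 to 48871683). Gbp4 lies on chromosome 5 (105115767 to 105139586, minus strand) and Iigp1 on chromosome 18 (60376027 to 60392634, plus strand). All 9 are protein coding. Igtp shares its locus with Irgm2, Gbp4 overlaps Gbp8 and Gbp9, Gbp7 overlaps Gm43802 and Gbp2 overlaps a microRNA gene, so reads of these genes could have been split or dropped. The labels and notes used here do not say how the counting treated strand and shared reads.

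The 4 libraries held 27270 barcodes and 184611085 UMIs (a UMI marks an original RNA molecule). After filtering, 25954 cells were kept, and the median cell held 3760, 6389.5, 6374 and 8543.5 UMIs. Every run of 4 values follows the same order, first IgG, then anti-PD-1, then anti-PSGL-1, then the combination. Cell classes were gated on transcripts of lineage markers, none of them a member, and 18836 cells fell into 12 classes. Macrophages and monocytes were summed (1940, 1943, 1892 and 1333 cells), and CD8 T cells (1589, 1183, 1384 and 1730) and NK cells (727, 496, 387 and 224) were the other classes with at least 100 cells in every library. Each level is the UMI count of a gene per 1000000 UMIs of the class (CPM), which allows the same gene to be compared between classes and libraries but not different genes with each other. A ratio counts as called at 1.5-fold or more. Beside each count of called members stands the share of all genes that was called in the same direction, taken over genes that reach 20 CPM in 1 of the libraries compared or in both. Across the libraries, 61 barcodes occurred in more than 1 library.

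In the IgG library the sum of the 9 genes was highest in monocytes, at 1242 (1209 to 1276) CPM, followed by regulatory T cells at 1051 (1003 to 1100.2) CPM. Macrophages (960.1 CPM) and neutrophils (915) came next and did not differ beyond their intervals. CD4 T cells without Foxp3 (862 CPM), type 2 conventional dendritic cells (721) and migratory dendritic cells (669) were intermediate. NK cells (358 CPM), CD8 T cells (333), plasmacytoid dendritic cells (256), type 1 conventional dendritic cells (236) and B cells (177) were lowest. NK and CD8 T cells overlapped, as did plasmacytoid with type 1 dendritic cells and the latter with B cells. These sums lean on Gbp2, which alone stood at 571 CPM in monocytes and 434 in macrophages, against 75.0 in regulatory T cells. Their order is not that of each member, since Iigp1, Igtp, Irgm2, Gbp4 and Gbp7 were each highest in regulatory T cells. The order of the classes was not the same with each antibody. With anti-PD-1 monocytes (3738 CPM), macrophages (2807) and type 2 dendritic cells (2034) all stood above regulatory T cells (1519). With anti-PSGL-1 regulatory T cells (1000.04 CPM) and monocytes (963) shared the top, with overlapping intervals.

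The members divided over the classes in different ways. Iigp1, an effector IRG that coats the vacuoles of Toxoplasma and Chlamydia in mouse cells, was highest in regulatory T cells with IgG (151 [133 to 170.2] CPM), above CD4 T cells (79.1), the dendritic cell classes (52.8 to 62.1), macrophages (43.2) and monocytes (22.5). It was nearly absent from CD8 T cells (7.90 CPM), neutrophils (5.27), B cells (4.59) and NK cells (3.37), whose intervals overlapped. Igtp, an IRG of the regulatory group that sits on endoplasmic reticulum membranes, was likewise highest in regulatory T cells (257 CPM) and CD4 T cells (191), with monocytes at 104 and B cells lowest at 18.4. Gbp7, a GBP linked in mouse macrophages to the phagocyte oxidase and to autophagy, followed the same order at the top, with 218 CPM in regulatory T cells, 182 in CD4 T cells and 118 in monocytes. Its intervals in regulatory T and CD4 T cells overlapped. Gbp4 and Irgm2 were also highest in regulatory T cells with IgG, at 99.5 and 49.4 CPM, though each overlapped the next class.

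Gbp2, which coats Toxoplasma vacuoles and helps to lyse bacteria in the cytosol, was highest in myeloid cells. It stood at 571 CPM in monocytes, 434 in macrophages and 429 in neutrophils with IgG, against 75.0 in regulatory T cells and 43.7 in CD8 T cells. Monocytes held the highest Gbp2 level in each of the 4 libraries. Irgm1, the regulatory IRG that mice need to resist many intracellular bacteria, was highest in monocytes with IgG (164 CPM), with an interval that just reached neutrophils (121) and lay above type 2 dendritic cells (119). Gbp3 followed, at 114 CPM in monocytes and 84.9 in macrophages. Gbp5, which promotes NLRP3 inflammasome assembly in mouse macrophages, was highest in migratory dendritic cells with IgG, at 165 (137 to 198) CPM against 82.5 in neutrophils and 78.5 in monocytes. No class is known to lack these genes altogether, so background from free RNA was not measured. The lowest levels of Igtp and Irgm2 in any class and library were 9.03 and 2.41 CPM, in type 1 dendritic cells with anti-PSGL-1.

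**Figure D1:**
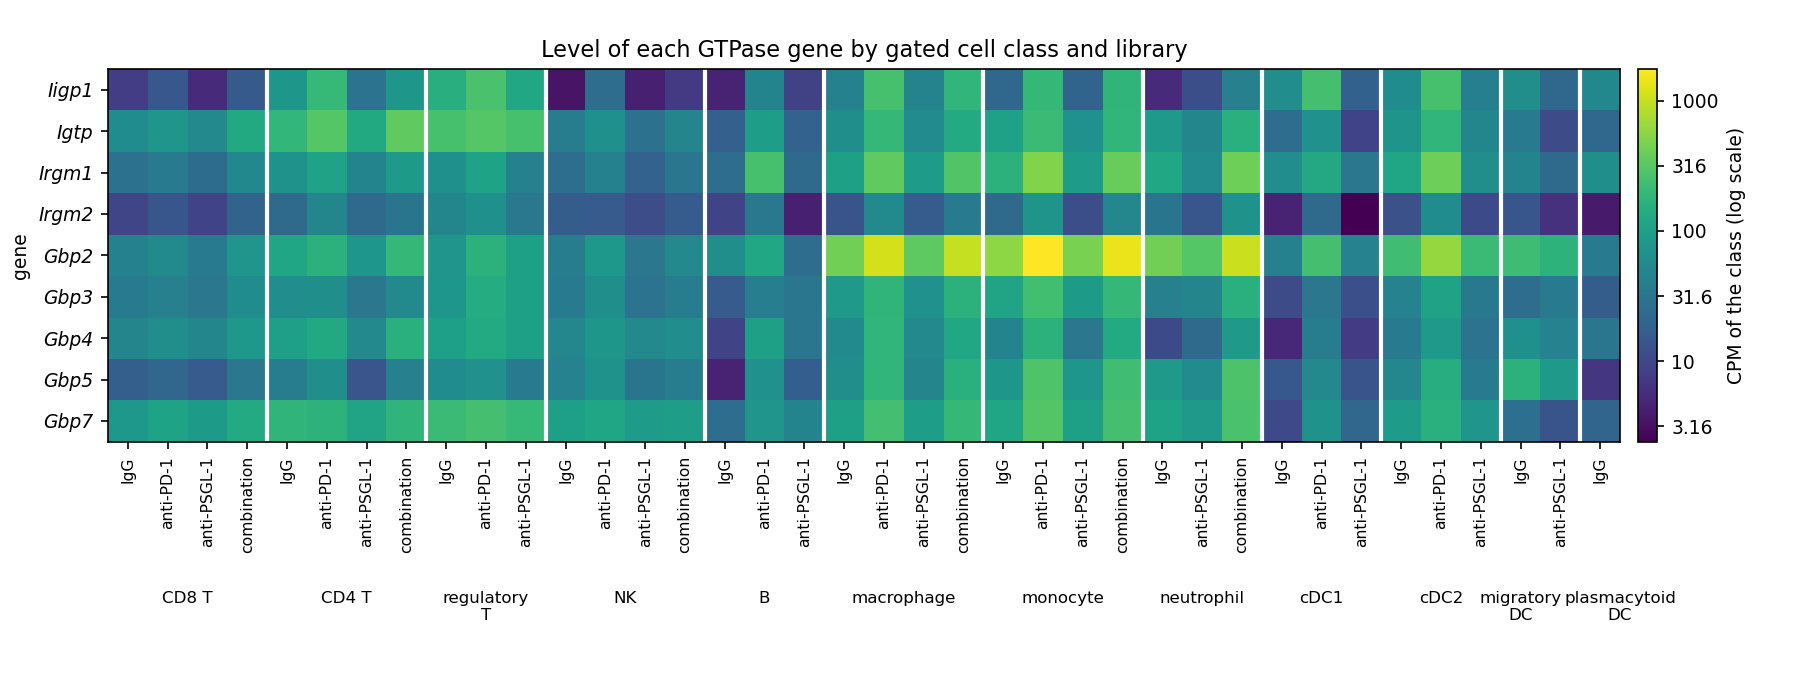
Colour gives the CPM of each of the 9 genes (rows, log colour scale) in each gated class with at least 50 cells, by library (columns). Gbp2 in monocytes reached 1755 CPM with anti-PD-1, the highest value drawn, and the anti-PD-1 and combination columns of the macrophage and monocyte classes are brighter than the IgG and anti-PSGL-1 columns for every gene.

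In macrophages and monocytes all 9 genes were higher with anti-PD-1 and with the combination than with IgG or anti-PSGL-1. Their sum was 1082 (1062 to 1103), 3216 (3186 to 3247), 883 (868 to 899) and 2625 (2596 to 2655) CPM. The anti-PD-1 library was the highest of the 4 for each of the 9, the combination second for each, and the intervals of these libraries did not reach those of the other pair. Against IgG, 9 of 9 members were called higher with anti-PD-1, where 7.74% of all genes were, and 9 of 9 with the combination, where 3.72% were. The median log2 ratio of the members was 1.70 with anti-PD-1 and 1.27 with the combination, and that of all genes 0.01 and 0.05. With anti-PSGL-1 alone no member was called in either direction, where 1% of all genes were called higher and 0.661% lower. In that library 8 members lay below IgG, from a ratio of 0.706 (0.653 to 0.763) for Irgm1 to 0.905 (0.835 to 0.981) for Gbp7, and Iigp1 stood at 1.01 (0.874 to 1.16).

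Among the IRGs, the effector Iigp1 showed the largest ratios of the 9. It stood at 34.2 (30.7 to 38.0), 231 (223 to 239.7), 34.4 (31.4 to 37.6) and 181 (173 to 189) CPM. The IgG and anti-PSGL-1 libraries overlapped and the other 2 were far above them, 6.77 (6.05 to 7.59) and 5.28 (4.71 to 5.94) times the IgG level with anti-PD-1 and the combination. Irgm1 was at 129 (122 to 136), 418 (407 to 429), 91.0 (86.1 to 96.1) and 333 (323 to 344) CPM. The anti-PSGL-1 library was lowest, below the IgG interval, and anti-PD-1 gave a ratio to IgG of 3.24 (3.05 to 3.45). Igtp stood at 81.6, 203, 62.9 and 159 CPM, 2.49 (2.31 to 2.70) times IgG with anti-PD-1 and 1.95 (1.79 to 2.12) times with the combination. Irgm2, with the fewest UMIs of the 9 (177 with IgG), was at 17.8, 63.5, 14.2 and 42.7 CPM, a ratio to IgG of 3.58 (3.04 to 4.23) with anti-PD-1. Whether reads were shared between Igtp and Irgm2 was not tested.

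Gbp2 carried the most UMIs of the 9 in these cells and stood at 493 (479.6 to 507), 1419 (1399 to 1439), 401 (390.2 to 411) and 1192 (1172 to 1212) CPM. None of these intervals overlapped, and the ratio to IgG was 2.88 (2.79 to 2.97) for anti-PD-1 and 2.42 (2.34 to 2.498) for the combination. Gbp5 stood at 69.1, 227, 61.8 and 189.8 CPM, with ratios to IgG of 3.29 (3.03 to 3.58) and 2.75 (2.52 to 3.00). Gbp4, a GBP encoded outside the chromosome 3 cluster, was at 51.4, 177, 44.0 and 129.9 CPM, with ratios of 3.45 (3.14 to 3.805) and 2.53 (2.29 to 2.80). The smaller ratios of the family belonged to Gbp7 (109, 269, 98.3 and 219.8 CPM) and Gbp3 (97.3, 207, 76.2 and 178 CPM). Gbp3 was still 2.12 (1.97 to 2.29) times IgG with anti-PD-1 and 1.83 (1.69 to 1.98) times with the combination. T cell markers (Cd3d, Cd3e and Cd3g) summed to 12.9, 15.7, 12.8 and 10.3 CPM in these cells, macrophage markers to 2935, 2539, 2173 and 2189, and melanoma genes to 7.72, 18.2, 17.0 and 13.7; their part in the ratios was not tested.

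**Figure D2:**
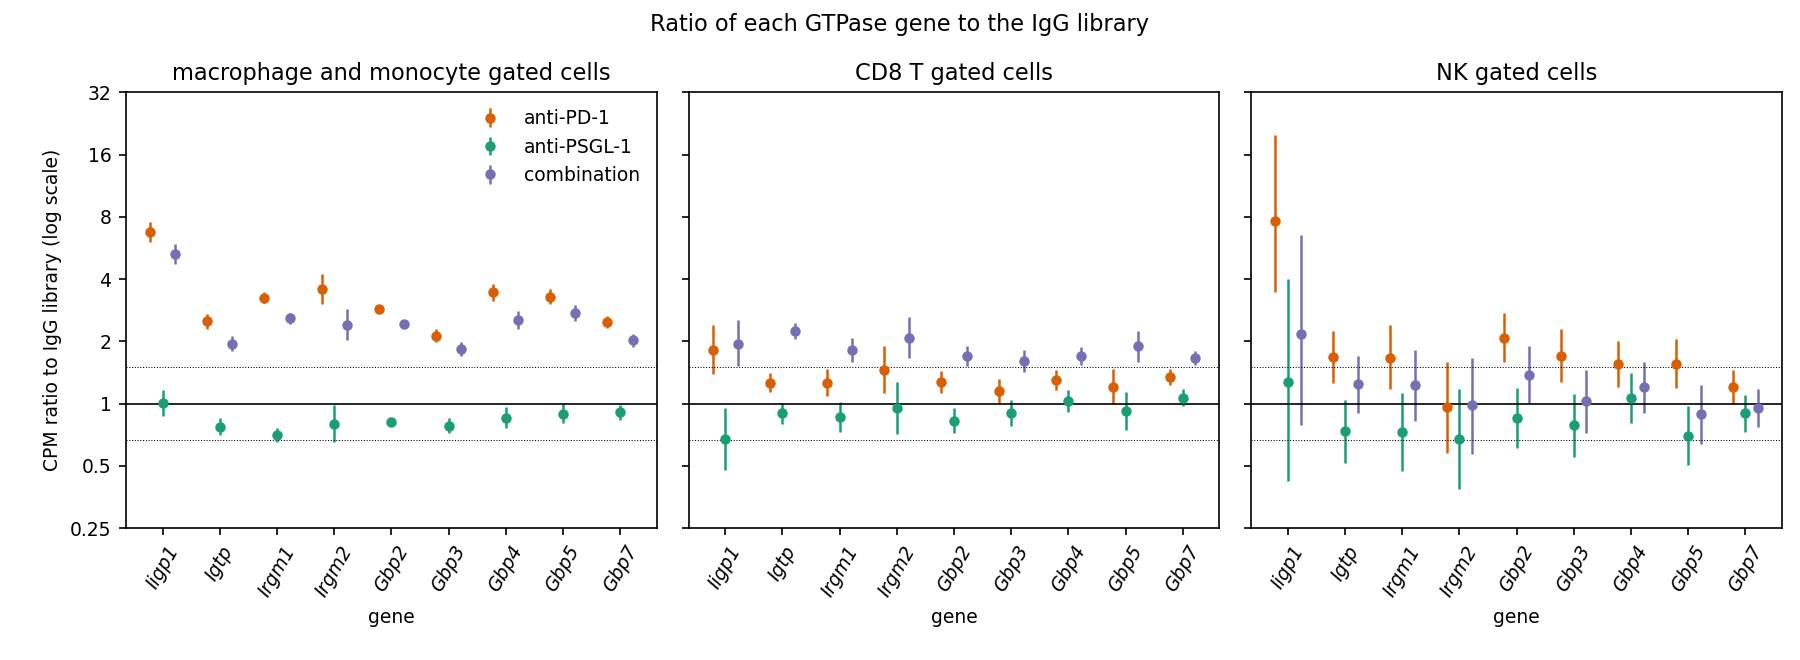
Points give the CPM ratio of each gene to the IgG library (log axis) for anti-PD-1, anti-PSGL-1 and the combination in macrophages and monocytes, CD8 T cells and NK cells; bars are 95% intervals for counting error and dotted lines mark 1.5-fold each way. In macrophages and monocytes anti-PD-1 exceeds the combination for each gene, whereas in CD8 T cells the combination is highest for each gene.

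All 9 genes were higher than IgG with anti-PD-1 and the combination in each kind of macrophage and monocyte examined. This split was chosen after the values were seen. Macrophages alone stood at 960.1, 2807, 817 and 2269 CPM for the sum of the 9 genes and monocytes at 1242, 3738, 963 and 3055 CPM. Both classes had 9 of 9 members called higher against IgG with anti-PD-1 (backgrounds 8.19% and 9.12%) and with the combination (4.18% and 4.71%). Iigp1 stood at 43.2, 260.5, 46.3 and 182 CPM in macrophages and 22.5, 195, 20.0 and 179 in monocytes. It was the member that differed most between these classes with IgG and anti-PSGL-1, whereas with the combination their intervals overlapped. With anti-PD-1 other members differed more, such as Gbp5 at 182 CPM in macrophages and 285 in monocytes. The ratio of Iigp1 to IgG with anti-PD-1 was 6.03 (5.28 to 6.92) in macrophages and 8.66 (7.03 to 10.8) in monocytes. Monocytes that carried Ace or Treml4, markers of the patrolling subset, ranged with anti-PD-1 from 2.07 (Igtp) to 17.0 (Iigp1) times IgG, where the Iigp1 ratio rests on 11 UMIs with IgG (10.1, 5.02 to 18.0 CPM). Those without ranged from 2.08 (Gbp3) to 7.61 (Iigp1). Macrophages with Mrc1, the mannose receptor of tissue-repair macrophages, ranged from 2.31 (Gbp3) to 7.41 (Iigp1), and those without from 1.79 (Gbp3) to 5.44 (Iigp1). With anti-PSGL-1 the kinds differed, and the median ratio of the members to IgG was 1.09 in macrophages with Mrc1 and 0.796 in those without. In monocytes with and without Ace or Treml4 that median was 0.817 and 0.725. Macrophages with Mrc1 numbered 397, 191, 480 and 174 cells, and those without 652, 819, 546 and 509. Monocytes also had lower regulatory IRGs with anti-PSGL-1. Irgm1 was at 164, 509, 91.8 and 381 CPM, Irgm2 at 23.4, 72.2, 11.6 and 51.1 and Igtp at 104, 218, 68.3 and 186. These were the 3 members called lower against IgG there (0.559 [0.500 to 0.624], 0.495 [0.362 to 0.675] and 0.659 [0.577 to 0.754]), where 1.51% of all genes were. Macrophages showed none, with Irgm1 at 0.886 (0.793 to 0.991) and Irgm2 at 1.21 (0.904 to 1.63) times IgG, where 1.61% of all genes were called higher and 0.912% lower.

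Counted per cell, the members were present in more macrophages and monocytes, and more often together, with anti-PD-1 and the combination. To compare cells at equal depth each was thinned to 2000 UMIs, which left out 193, 61, 114 and 28 shallower cells. At least 1 of the 9 genes had a UMI in 59.3%, 88.4%, 51.2% and 84.6% of cells, and at least 3 of them in 18.8%, 55.6%, 15.0% and 45.7%. At least 5 were seen in 4.06%, 24.7%, 3.21% and 17.5%. Gbp2 had a UMI in 36.2%, 70.3%, 30.3% and 61.8% of the thinned cells (47.6%, 83.4%, 44.8% and 78.3% unthinned), and Iigp1 in 5.04%, 19.9%, 4.84% and 17.9% (8.35%, 34.5%, 8.67% and 30.7% unthinned). For comparison, Gbp2 had a UMI in 2.46% of thinned plasmacytoid dendritic cells with IgG, whose median depth was 4850 UMIs against 4924 in the macrophages and monocytes of that library. In the anti-PD-1 library the 19 cells with the most UMIs of each gene, the top 1%, held 6.21% of its Gbp2 UMIs and 16.4% of its Iigp1 UMIs.

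**Figure D3:**
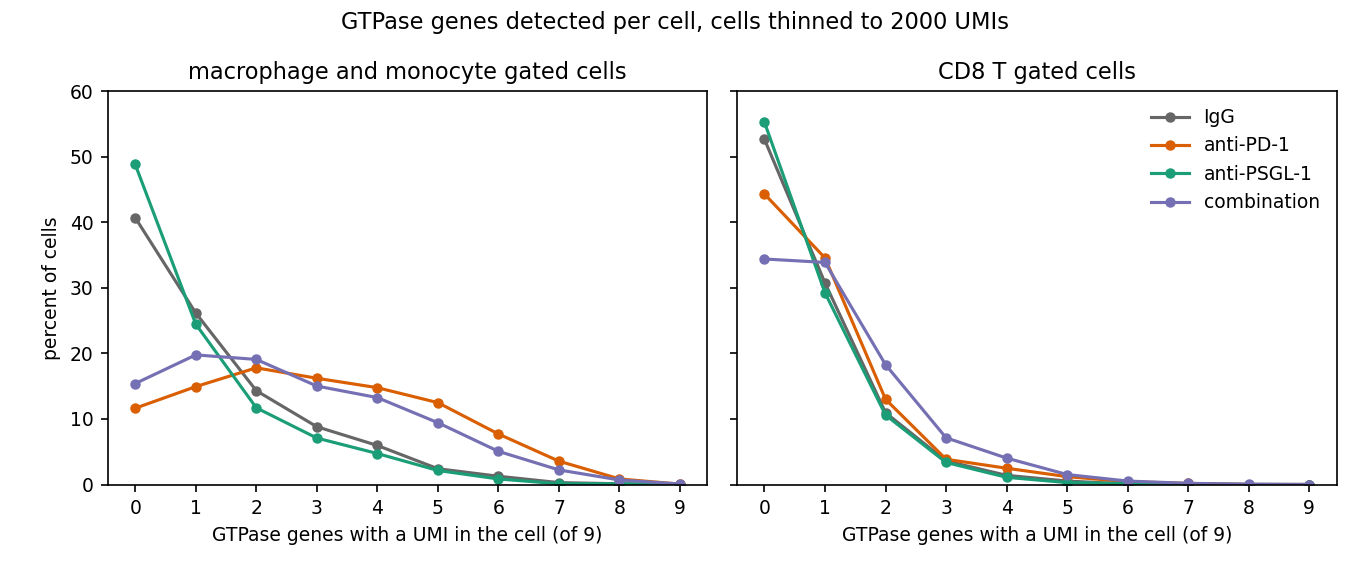
Lines give the percent of cells (vertical axis) in which 0 to 9 of the genes had a UMI (horizontal axis), after thinning to 2000 UMIs, by library. In macrophages and monocytes the IgG and anti-PSGL-1 lines peak at 0 genes and the anti-PD-1 and combination lines at 2 and 1 genes.

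In CD8 T cells the order of the libraries was another one, with the combination highest for all 9 genes. Their sum stood at 333 (322 to 345), 429.8 (419 to 441), 314 (304 to 324) and 604 (593 to 614) CPM. The IgG and anti-PSGL-1 intervals overlapped at their edges, and the other libraries stood apart from them and from each other. With the combination 9 of 9 members were called higher than IgG, where 3.02% of all genes were, and 9 of 9 higher than anti-PSGL-1, where 3.19% were. Iigp1 and Irgm2 were below 20 CPM in every library and so do not count in these backgrounds. With anti-PD-1 the 9 ratios to IgG all lay above 1 but Iigp1 was the single member called, where 2.69% of all genes were, and with clusters in place of the gate no member was. With anti-PSGL-1 no member was called higher (0.602% of all genes) or lower (0.789%), and Gbp4 and Gbp7 alone lay above IgG, at ratios of 1.03 (0.909 to 1.16) and 1.07 (0.972 to 1.17) whose intervals include 1.

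Igtp differed most among the well-counted members in CD8 T cells. It stood at 59.3 (54.5 to 64.3), 74.6 (70.1 to 79.4), 53.1 (49.1 to 57.3) and 133 (128 to 138) CPM. The combination was 2.24 (2.05 to 2.46) times IgG and 1.78 (1.66 to 1.92) times anti-PD-1, and a UMI of Igtp was found in 13.5%, 16.3%, 10.5% and 24.8% of CD8 T cells thinned to 2000 UMIs (25.2%, 44.6%, 30.1% and 62.7% unthinned). Irgm1 was at 28.8, 36.2, 24.9 and 52.0 CPM, 1.81 (1.58 to 2.07) times IgG with the combination. Of the GBPs, Gbp7 was at 81.6, 109, 87.0 and 136 CPM, Gbp4 at 47.8, 62.1, 49.1 and 81.1 and Gbp2 at 43.7, 55.6, 36.1 and 74.1. Their ratios of the combination to IgG were 1.67 (1.54 to 1.80), 1.70 (1.53 to 1.88) and 1.70 (1.52 to 1.89). Gbp3 (36.8, 42.4, 33.2 and 59.1 CPM) and Gbp5 (17.6, 21.2, 16.2 and 33.2 CPM) had intervals that overlapped between IgG and both single antibodies, and the combination alone stood apart. Irgm2 was at 9.56, 13.9, 9.09 and 19.9 CPM. For 8 of the 9 genes the interval of the combination lay above those of the other 3 libraries. The exception was Iigp1, which was scarce, at 7.90 (6.22 to 9.89), 14.4 (12.4 to 16.6), 5.31 (4.11 to 6.75) and 15.4 (13.8 to 17.2) CPM, with overlap between anti-PD-1 and the combination. At least 1 of the 9 genes had a UMI in 47.3%, 55.7%, 44.7% and 65.6% of thinned CD8 T cells, and at least 3 in 5.64%, 8.13%, 4.90% and 13.4%.

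Other measures of the CD8 T cells differed between the libraries as well. Cells with a UMI of the proliferation genes Mki67 or Top2a made up 37.6, 53.2, 45.4 and 55.5% of the class, and without them 8 of the 9 members were still called higher with the combination than with IgG. The macrophage markers summed to 16.01, 7.31, 8.36 and 4.79 CPM in the CD8 T gate, lowest where the members were highest, and their part was not tested. Ifng, the gene of interferon-gamma itself, was at 218 (209 to 228), 536 (523 to 548), 173 (166 to 180.5) and 366 (358 to 375) CPM in CD8 T cells, so that its highest library was anti-PD-1 and not the combination. In NK cells Ifng stood at 82.8, 103, 78.3 and 59.3 CPM, in CD4 T cells at 191, 244, 333 and 540.2, and in macrophages and monocytes at 2.21, 1.92, 1.70 and 1.21.

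In NK cells, like in macrophages and monocytes, anti-PD-1 was the highest library for 8 of the 9 genes. The sum stood at 358 (332 to 384), 564 (531 to 598), 301 (278 to 325) and 392 (363 to 424) CPM. Against IgG 7 of 9 members were called higher with anti-PD-1, where 3.65% of all genes were, and 1 of 9 with the combination, where 5.81% were. That member was Iigp1, which lay under 20 CPM in both of those libraries and so outside that background. Gbp5 was at 44.8, 69.5, 31.3 and 39.7 CPM, Gbp3 at 37.5, 64.0, 29.4 and 38.5 and Igtp at 39.5, 66.0, 29.0 and 48.9, and their ratios of anti-PD-1 to IgG were 1.55 (1.19 to 2.04), 1.70 (1.28 to 2.29) and 1.67 (1.26 to 2.23). Gbp2 (39.0, 81.1, 33.2 and 53.8 CPM) and Iigp1 (3.37, 25.7, 4.27 and 7.33 CPM) had the largest ratios, 2.08 (1.58 to 2.75) and 7.63 (3.45 to 19.9), but rested on few cells. Of 51 Iigp1 UMIs in the 496 NK cells of the anti-PD-1 library 23 came from 1 cell, and 5 cells held 52.2% of the Gbp2 UMIs. When each cell was given equal weight 4 members were called with anti-PD-1, and with clusters in place of the gate 3 were. With anti-PSGL-1 no member was called higher (4.01% of all genes) or lower (6.52%). Against anti-PSGL-1 the combination had 4 members called higher (Iigp1, Igtp, Irgm1 and Gbp2), where 5.27% of all genes were. Iigp1 rested there on 12 UMIs against 9, under 20 CPM in both libraries and outside that background, and the count was 2 with clusters and 1 after thinning. Cells with Mki67 or Top2a made up 9.35, 15.1, 22.7 and 23.7% of the NK cells.

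The rarer classes gave levels in fewer libraries. CD4 T cells without Foxp3 had 249, 84, 328 and 105 cells and a sum of 862 (800.2 to 926), 1259 (1146 to 1381), 523 (489 to 559) and 1175 (1085 to 1270.2) CPM. Here anti-PSGL-1 alone was the lowest library for all 9 genes, and 6 of 9 were called lower than with IgG, where 10.6% of all genes were. Iigp1 was at 79.1, 199.7, 29.8 and 78.0 CPM, a ratio of anti-PSGL-1 to IgG of 0.377 (0.256 to 0.551), and Gbp5 at 38.9, 63.8, 13.7 and 42.7 CPM, a ratio of 0.352 (0.197 to 0.617). With the combination 3 of 9 members were called higher than IgG in CD4 T cells, where 10.5% of all genes were. They were Igtp (191, 305, 130.4 and 349 CPM), Gbp2 (117, 166, 77.4 and 193) and Gbp4 (99.1, 133, 54.2 and 158), and Igtp with the combination was the highest Igtp value of any class and library. Against anti-PSGL-1 the combination had 8 of 9 called higher in these cells, all but Irgm2, where 13.4% of all genes were. Regulatory T cells (343, 95 and 147 cells with IgG, anti-PD-1 and anti-PSGL-1) had sums of 1051, 1519 and 1000.04 CPM. With anti-PSGL-1 Gbp5 and Irgm1 were called lower than IgG in them, at ratios of 0.599 (0.400 to 0.881) and 0.664 (0.459 to 0.946), where 6.78% of all genes were.

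Dendritic cells, B cells and neutrophils are given in the libraries that held at least 50 of them. In type 2 dendritic cells the sum was 721, 2034 and 554 CPM with IgG, anti-PD-1 and anti-PSGL-1 (267, 72 and 124 cells), and in type 1 dendritic cells 236, 919.5 and 161 CPM (156, 54 and 126 cells). Iigp1 in type 1 dendritic cells stood at 60.3 (48.7 to 73.8), 252 (215 to 294) and 18.7 (12.7 to 26.5) CPM, and none of these intervals overlapped. All 4 IRGs were called lower with anti-PSGL-1 in type 1 dendritic cells, where 5.18% of all genes were, and Gbp4 and Gbp7 higher, where 5.87% were. Irgm2 (4 UMIs against 7) and Gbp4 (13 against 8) lay under 20 CPM in both libraries and so outside these backgrounds. In type 2 dendritic cells Irgm1 stood at 119 (104 to 136), 409 (361 to 462) and 62.2 (48.6 to 78.4) CPM. Irgm1 and Igtp were called lower there with anti-PSGL-1 (0.522 [0.394 to 0.684] and 0.665 [0.479 to 0.914] times IgG), where 5.71% of all genes were. Migratory dendritic cells (118 cells with IgG and 114 with anti-PSGL-1) had 669 and 412 CPM, with 6 of 9 members called lower with anti-PSGL-1, where 11.7% of all genes were. Irgm2, among the 6, rested on 6 UMIs against 10 and lay outside that background. B cells, with 217, 54 and 179 cells, had 177 (139.6 to 221), 844 (702 to 1006) and 209 (169.6 to 255) CPM; the anti-PD-1 value rests on 124 UMIs, of which 38 were Irgm1. With anti-PSGL-1 B cells had 5 members called higher (background 10.4%) and 2 lower (18.8%), most of them on a handful of UMIs. Iigp1 (4 UMIs against 2) and Gbp5 (8 against 2), called higher, lay under 20 CPM in both libraries and so outside these backgrounds. The same held for Irgm2 (2 UMIs against 4), called lower. Neutrophils stood at 915 (838 to 997), 657 (606 to 711) and 2492 (2345 to 2647) CPM with IgG, anti-PSGL-1 and the combination (322, 234 and 99 cells). All 9 members were highest with the combination in neutrophils, Gbp2 at 429, 309 and 1037 CPM and Irgm1 at 121, 58.1 and 406. With anti-PSGL-1 1 neutrophil held 69 of the 287 Gbp2 UMIs, and with the combination 1 held 100 of the 1062 UMIs of all members. Macrophage markers in the neutrophil gate summed to 133, 308 and 310 CPM with IgG, anti-PSGL-1 and the combination, and their part was not tested. With anti-PSGL-1 Igtp, Irgm1 and Irgm2 were called lower than IgG in neutrophils, where 10.4% of all genes were, and Iigp1 and Gbp4 higher, where 21% were. Iigp1 rested on 11 UMIs against 3, 5 of the 11 from 1 cell, and lay under 20 CPM in both libraries, outside that background. Gbp4 rested on 22 UMIs against 6 and Irgm2 on 13 against 18. Summed over the 9 genes, the anti-PD-1 library was thus above IgG in each of the 9 classes with a level in both, and the anti-PSGL-1 library was below IgG in 10 of the 11 classes with a level in both, B cells being the exception. The anti-PSGL-1 and IgG intervals overlapped in CD8 T cells, regulatory T cells and B cells, so the direction there is within counting error.

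The combination differed from anti-PD-1 in opposite directions in macrophages and monocytes and in CD8 T cells. In macrophages and monocytes all 9 ratios of the combination to anti-PD-1 were below 1, from 0.672 (0.600 to 0.751) for Irgm2 to 0.861 (0.813 to 0.912) for Gbp3, and none reached 1.5-fold, where 2.15% of all genes were called higher and 2.94% lower. In CD8 T cells all 9 were above 1, from 1.07 (0.893 to 1.29) for Iigp1 to 1.78 (1.66 to 1.92) for Igtp, and Igtp and Gbp5 (1.56 [1.36 to 1.80]) were called higher, where 1.24% of all genes were. In NK cells 8 of 9 ratios were below 1 and Iigp1, Gbp2, Gbp3 and Gbp5 were called lower, where 10.1% of all genes were. That count was 2 with clusters in place of the gate, 1 with equal weight per cell and 2 without cells that carried Mki67 or Top2a. Gbp2 changed direction with clusters and with equal weight, to a log2 ratio of 0.12 and 0.029 in place of -0.59. In macrophages alone Irgm2 and Gbp4 were called lower (0.629 [0.533 to 0.740] and 0.665 [0.609 to 0.726]), where 3.48% of all genes were, and monocytes alone had no member called (2.85% of all genes higher and 3.47% lower). Split further, the median ratio of the members to anti-PD-1 was 0.622 in macrophages with Mrc1 and 0.8002 in those without. In monocytes with Ace or Treml4 that median was 0.703, and in those without it was 0.8586. The share of all genes was not taken in these subsets, so no count of called members is given for them. Whether the difference between subsets is particular to the members was not tested. Against anti-PSGL-1 the combination was called higher for 9 of 9 members in macrophages and monocytes, where 4.54% of all genes were, from 2.24 (2.09 to 2.39) for Gbp7 to 5.25 (4.76 to 5.81) for Iigp1. The backgrounds of that count were 4.6% in macrophages alone and 6.22% in monocytes alone, which also had 9 of 9. The comparisons share libraries, so their ratios are not independent of each other.

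Other interferon genes were set beside the members in macrophages and monocytes, by lists that were chosen with earlier results of these data known. Of 17 other IRG, GBP and related GTPase genes, 14 were among the counted genes and 8 reached 20 CPM in the anti-PD-1 or IgG library. Some of the 8 reached that level with anti-PD-1 alone and so had to differ, which is why no count over them is given. Gbp8, Gbp9, Mx1 and 9930111J21Rik2 passed 20 CPM with IgG as well, and their ratios of anti-PD-1 to IgG were 2.77 (2.38 to 3.24), 1.71 (1.53 to 1.93), 1.84 (1.61 to 2.10) and 2.34 (2.10 to 2.61). Gbp8 and Gbp9 share their locus with Gbp4. Gbp2b (the mouse GBP1) was at 31.9 against 5.52 CPM with anti-PD-1 and IgG, Gm4951 (an effector IRG) at 31.1 against 7.12 CPM, and F830016B08Rik at 22.4 against 1.40 CPM. With the combination the ratios to IgG were 1.88 (1.59 to 2.22) for Gbp8, 1.41 (1.25 to 1.60) for Gbp9, 0.888 (0.760 to 1.04) for Mx1 and 1.72 (1.53 to 1.94) for 9930111J21Rik2. The 9 genes of the interferon-gamma signalling list at 20 CPM or more in at least 1 of the libraries compared had a median log2 ratio to IgG of 0.28 with anti-PD-1 and 0.20 with the combination, and genes of it that were called are named next. Socs1, a feedback inhibitor of interferon-gamma signalling, was 4.16 (3.84 to 4.53) times IgG for anti-PD-1 and 2.57 (2.35 to 2.81) times for the combination. Irf1, a transcription factor that acts on ISRE motifs, was called higher too, at 2.37 (2.26 to 2.48) and 2.16 (2.06 to 2.27). Ifngr1, the receptor chain that binds interferon-gamma, was called lower with anti-PD-1 (0.596 [0.559 to 0.635]). Cxcl9 and Cxcl10, chemokines that draw T cells, were 2.77 (2.68 to 2.85) and 2.99 (2.92 to 3.07) times IgG with anti-PD-1.

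Type I interferon genes had another order of libraries in macrophages and monocytes. With anti-PD-1, 14 of 17 measured genes of the list were called higher than IgG, where 7.74% of all genes were, at a median log2 ratio of 1.05. They were led by Oasl1 at 2.47 (2.22 to 2.76), Ifit2 at 2.32 (2.11 to 2.57) and Oasl2 at 2.22 (2.07 to 2.39), antiviral genes of the interferon response. With the combination 0 of 17 were called higher than IgG, where 3.72% of all genes were, and Ifit3 was called lower (0.656 [0.571 to 0.754]), where 1.69% were. The median of the list was -0.05, where the members' median was 1.27. With anti-PSGL-1 the median of the list against IgG was -0.41. There 0 of 17 were called higher and 2 lower, Isg15 and Ifit3, where 1% and 0.661% of all genes were. Against anti-PSGL-1 the combination had 4 of 16 of the list called higher, where 4.54% of all genes were, at a median of 0.36. Set against anti-PD-1, the combination had 13 of 17 of the list called lower, where 2.94% of all genes were, at a median of -0.84, and 0 of 9 members, at a median of -0.33. Ifit3 (0.315 [0.280 to 0.354]), Ifit1 (0.363 [0.326 to 0.404]) and Oasl1 (0.380 [0.342 to 0.421]) were furthest down. Of the other GTPases, Mx1, of the related Mx family that type I interferon induces, was called lower in that comparison (0.483 [0.424 to 0.550]). F830016B08Rik (0.530 [0.430 to 0.650]) and Gm4070 (0.635 [0.531 to 0.757]) were lower as well. That pair passed 20 CPM through the anti-PD-1 library alone, so their direction is partly set by that minimum and no count is given. Antigen processing genes had 0 of 10 called between the combination and anti-PD-1, where 2.15% of all genes were called higher and 2.94% lower. Against IgG 6 of 10 were called higher with anti-PD-1 (7.74% of all genes) and 3 of 10 with the combination (3.72%). Tap1, a peptide transporter subunit, was 1.82 (1.72 to 1.91) and 1.67 (1.58 to 1.76) times IgG with anti-PD-1 and the combination. Of the proteins that GTPases work with, 12 measured genes of ATG8 conjugation and the inflammasomes, Casp4 alone was called higher with anti-PD-1 (1.78 [1.65 to 1.92]), where 7.74% of all genes were. Casp4 encodes the mouse sensor of cytosolic lipopolysaccharide. In CD8 T cells with the combination, Casp1, the inflammasome protease, stood at 1.88 (1.64 to 2.16) times IgG and Tap1 at 1.73 (1.64 to 1.83). There 0 of 7 measured type I interferon genes were called higher than IgG, at a median log2 ratio of 0.35, where the members' median was 0.85 and 3.02% of all genes were called.

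**Figure D4:**
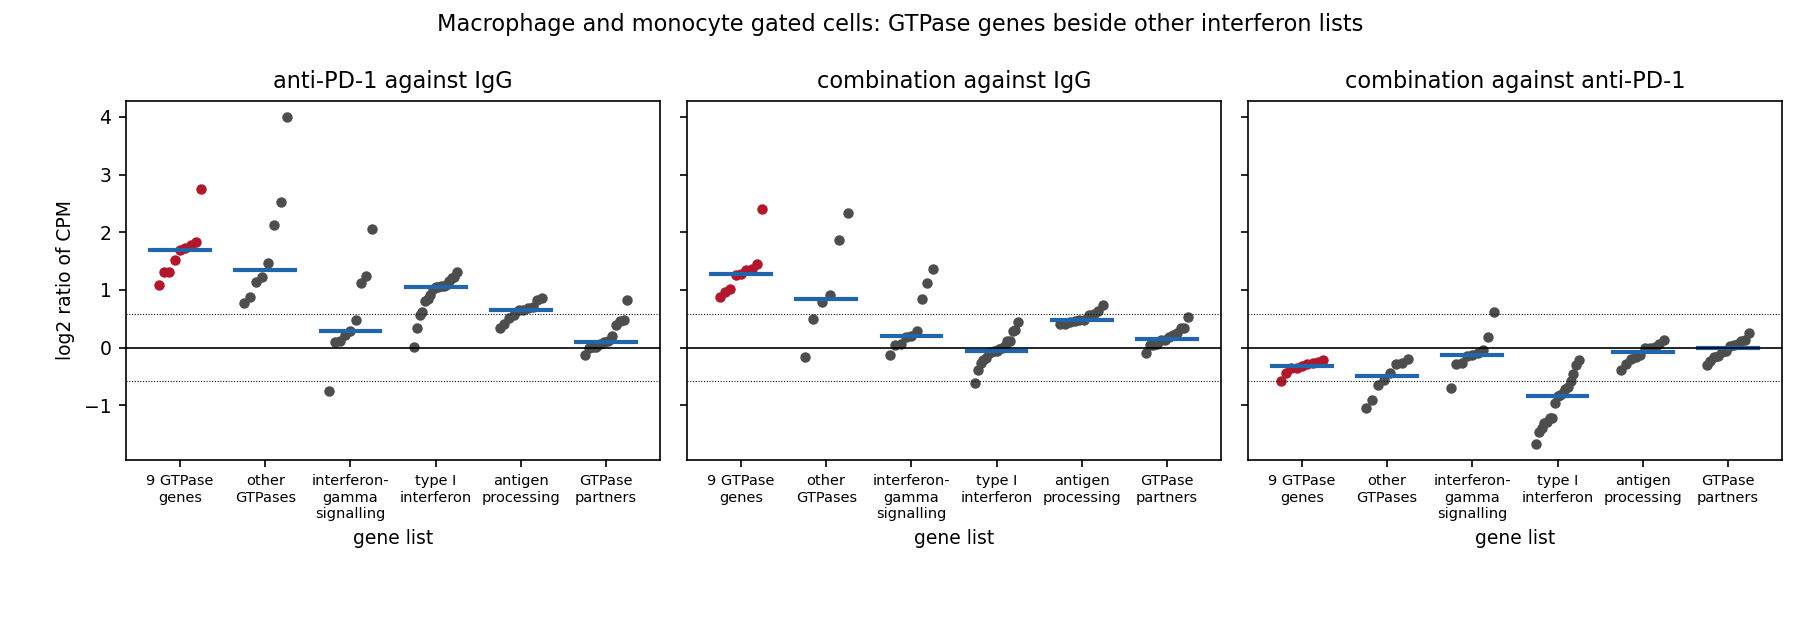
Points are genes of macrophages and monocytes, placed by their log2 ratio of CPM (vertical axis) in each comparison, for the 9 GTPase genes and the other lists (horizontal axis); blue bars are medians and dotted lines mark 1.5-fold. For the combination against IgG the GTPase genes lie at a median of 1.27 and the type I interferon genes at -0.05.

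Across the 32 sums of a class and library with at least 100 cells, the members varied together unevenly. The highest Spearman correlation between 2 of them was 0.93 (Igtp and Gbp7), the lowest 0.35 (Irgm1 and Gbp4), and the median over the 36 pairs 0.62. Irgm2 went with Gbp7 (0.92) and Igtp (0.86), and Irgm1 with Gbp2 (0.84). Iigp1 was the least like the mean of the others (0.66) and Gbp3 the most like it (0.89). These points share libraries and classes and are given as a description. Within libraries, cells correlated weakly. In macrophages and monocytes thinned to 2000 UMIs the median over the 36 pairs lay between 0.144 and 0.172, and in CD8 T cells between 0.0570 and 0.0919. Gbp2 with Gbp7 was the most correlated pair of macrophages and monocytes in all libraries but IgG (0.319, 0.327 and 0.366), and Gbp2 with Gbp3 in the latter (0.288). Over the 32 sums the genes most like the mean of the 9 members, among 8374 genes, were Zbp1 (0.893), a sensor of nucleic acids, Parp9 (0.891), Ifi47 (0.880), itself an IRG, Xaf1 (0.877), Slc26a2 (0.870), a sulfate transporter, Casp8 (0.869), an apoptosis protease, Ggh (0.869) and Pkm (0.842), a glycolytic enzyme. Among the genes that carry the interferon signal Irf1 stood at 0.79, Irf7 at 0.68, Irf9 at 0.44, Stat2 at 0.40 and Ifng at 0.07. Isg15 (0.76) and Ifit1 (0.75) of the type I interferon list lay close to Irf1. The antigen processing genes Nlrc5 and Psmb8 stood at 0.48 and 0.21.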

How the data were processed

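Each of the 4 libraries was a table of raw UMI counts per gene and barcode deposited by the authors, with no normalization, made with Cell Ranger 3.1.0 on mm10, per the submitters' processing notes, which also name FastQC. The labels do not state the kit's chemistry. A cell was kept when it had 300 genes or more, no more than 10% of its UMIs from mitochondrial genes, and no more than 60000 UMIs. Classes were gated per cell on lineage markers by thresholds that were set after seeing the data and use no member gene; the gate leaves out cells with markers of another lineage, and no doublet caller was run in the main analysis. Counts were summed per class and library and divided by the class total (CPM). Classes with at least 50 cells were given levels and those with at least 100 cells in both libraries ratios, in 5 comparisons.

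Intervals are exact 95% intervals (Poisson for levels, conditional binomial for ratios, Clopper-Pearson for shares) and cover counting error only. With 1 library per group no test between groups was made. Called means a ratio of 1.5 or more, and the background is taken over genes that reach 20 CPM in a library compared, whereas members are counted at any level. No floor was put in place of a count of 0, so a background gene with 0 counts in 1 of the libraries compared counted as called. The members and gene lists were chosen with earlier results of these data known. The genes named as most alike were the 8 with the highest Spearman correlation of log2 CPM (pseudocount 1) with the members' mean. From each list at most 3 genes each way were named by the interval bound nearest 1. Beyond that rule, other GTPases that passed 20 CPM with IgG as well as with anti-PD-1 in macrophages and monocytes were named. A gene of the interferon-gamma list is not reported here. The ratio calculation was tested on simulated data. Alternatives were clusters, Scrublet doublet scores, a stricter cell filter, equal weight per cell, median ratio scaling, cycling cells or shared barcodes left out, thinning, and other minimums. Tools were Python 3.11.15, numpy 2.4.6, scipy 1.17.1, pandas 2.3.3, scanpy 1.11.5, leidenalg 0.10.2, igraph 0.11.9 and matplotlib 3.10.9.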

Additional observations from a re-analysis of the deposited data

Results flagged for a closer look

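The ratio of the combination to anti-PD-1 lay on opposite sides of 1 in macrophages and monocytes and in CD8 T cells for 8 members, with intervals that exclude 1 on both sides, and this difference was not tested, since each group is 1 library. The ratio in macrophages and monocytes and that in CD8 T cells were 0.781 and 1.78 for Igtp, 0.796 and 1.44 for Irgm1, and 0.672 and 1.43 for Irgm2. They were 0.8402 and 1.33 for Gbp2, 0.861 and 1.39 for Gbp3, 0.733 and 1.31 for Gbp4, 0.834 and 1.56 for Gbp5, and 0.816 and 1.24 for Gbp7. Iigp1 was not among them, because its CD8 T interval includes 1.

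NK cells stood on the other side of 1 from CD8 T cells in the same comparison for 5 members, also untested. The CD8 T ratio and the NK ratio were 1.78 and 0.741 for Igtp, 1.33 and 0.663 for Gbp2, 1.39 and 0.602 for Gbp3, 1.56 and 0.571 for Gbp5, and 1.24 and 0.795 for Gbp7. The NK value of Gbp2 changed sign under 2 other settings.

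Cells that fell into no class were not used in the comparisons, and the summed level of the 9 genes in them was 718 CPM with IgG (3331 cells), 1847 with anti-PD-1 (1144 cells), 589 with anti-PSGL-1 (1942 cells) and 1269 with the combination (701 cells).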

How the results depend on the processing

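No paired analysis was possible because each group is 1 library. Of 64 ratios called in macrophages and monocytes, CD8 T cells and NK cells, 63 or 64 kept their direction in each alternative run on all 3 classes and 54 to 64 stayed 1.5-fold. The 9 of 9 members called higher in macrophages and monocytes with anti-PD-1 and with the combination stayed 9 in each of these alternatives, and the 9 of 9 in CD8 T cells with the combination stayed 8 or 9. Removing high doublet scores, a stricter cell filter and leaving out shared barcodes moved no count by over 1.5 times. NK cells moved most, and the cause was not tested.

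With clusters in place of the gate, the count of members called higher was 0 in CD8 T cells (anti-PD-1 against IgG), 3 in NK cells (anti-PD-1 against IgG) and 2 in NK cells (combination against anti-PSGL-1), 2 were lower in NK cells with the combination than with anti-PD-1, and the log2 ratio of Gbp2 there was 0.12 in place of -0.59. With equal weight per cell that Gbp2 value was 0.029, and 1 member was lower with anti-PSGL-1 than IgG in macrophages and monocytes and in CD8 T cells. That weighting also gave 1 higher with the combination than anti-PD-1 in CD8 T cells, 4 higher with anti-PD-1 than IgG in NK cells, 2 lower there with anti-PSGL-1, and 1 lower with the combination than anti-PD-1. For the combination against anti-PD-1 in macrophages and monocytes, 1 member was lower after median ratio scaling, without cycling cells and after thinning, and 2 in macrophages alone. Monocytes alone had 3 lower with anti-PSGL-1 than IgG. Without cycling cells NK cells had 1 higher with anti-PSGL-1 and 3 with the combination than IgG, and 2 lower with the combination than anti-PD-1. After thinning, 1 was higher in CD8 T cells with the combination than anti-PD-1, and NK cells had 1 lower with anti-PSGL-1 and 0 higher with the combination than IgG, and 1 higher with the combination than anti-PSGL-1.

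With a minimum of 3 UMIs in place of 20 CPM, the share of all genes called higher was 12.0%, 9.64%, 9.76%, 10.6% and 9.45% in macrophages and monocytes (each treated library against IgG, then the combination against anti-PD-1 and against anti-PSGL-1). It was 8.95%, 8.75%, 9.46%, 10.1% and 9.85% in CD8 T cells and 11%, 12.0%, 12.5%, 15.2% and 12.5% in NK cells. Gbp2 was seen in 26.5%, 56.7%, 20.5% and 47.7% of macrophages and monocytes at 1000 UMIs, and in 47.6%, 83.4%, 44.8% and 78.3% unthinned.

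Each group is a single library, so animal and library cannot be told apart from treatment. Depth limits Iigp1 and Irgm2 in CD8 T, NK and B cells and every member in classes under 100 cells.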
